A study of Arabidopsis thaliana with 38 samples.

Results

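The genes described here are the 29 Aux/IAA genes of Arabidopsis thaliana (IAA1 to IAA20 and IAA26 to IAA34) and the 6 genes of the TIR1/AFB auxin receptors (TIR1 and AFB1 to AFB5). They were chosen by locus identifier, and all 35 were found among the 27826 loci of the deposited table. RNA from nuclei of early embryos was measured on 38 one-colour microarrays in 11 groups that combine 3 times after hand pollination with either 1 cell type or the entire embryo. Nuclei were captured with INTACT, a two-component system that tags the nuclear envelope of a chosen cell type so that its nuclei can be pulled out. The labels name neither the drivers that marked each cell type nor the plant line. Each replicate was a pool, so p-values measure the spread between pools. No group received a treatment, and plants of all groups were grown on soil in long days at 1 constant temperature.

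At 72 h after pollination, the 16-cell stage, the groups were the inner lower tier (nILT_16C, 3 arrays), which gives rise to vascular and ground tissue, and the whole embryo (nEMB_16C, 3 arrays). At 81 h, the early globular stage, they were vascular cells (nVSC_EG, 4), ground tissue (nGSC_EG, 4), the suspensor (nSUS_EG, 3), the stalk between embryo and seed wall, and the whole embryo (nEMB_EG, 4). At 100 h, the late globular stage, they were vascular cells (nVSC_LG, 4), ground tissue (nGSC_LG, 3), the suspensor (nSUS_LG, 3), the group labelled QC (nQC_LG, 3), the usual short form for the quiescent centre of the root, and the whole embryo (nEMB_LG, 4).

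Aux/IAA proteins hold auxin response factors (ARFs) in check by binding them and recruiting TOPLESS corepressors. Auxin acts as a glue between a TIR1/AFB F-box protein and a short degron in the Aux/IAA protein, which is then marked by the SCF ubiquitin ligase and destroyed, so that the ARF is released. In the embryo this switch is known for the root pole and the vascular tissue: a stabilised IAA12 (BODENLOS) blocks ARF5 (MONOPTEROS), and plants with it form no embryonic root. Of the 29 Aux/IAA genes, 23 encode proteins with the degron, while IAA20 and IAA30 to IAA34 encode proteins without a conserved one.

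Values are log2 intensities made with RMA, and they compare 1 gene between groups, not 1 gene with another. Array medians lay between 2.47 and 2.71, and interquartile ranges between 1.03 (nQC_LG 2) and 2.1 (nILT_16C 1). The array nQC_LG 2 also had the lowest mean correlation with its own group, 0.635. Markers of the labelled cell types seldom differed from the whole embryo of the same stage by limma's test. In nVSC_LG, 1 of 6 vascular markers was called, the cytokinin enzyme LOG4 (2.37, adjusted p = 0.0319), while the other 5 differed by -0.22 to 0.52 and the list's median was 0.15. In nGSC_LG, 0 of 4 ground tissue markers were called (2 at an unadjusted p under 0.05), with SCR, a regulator of that tissue, at 1.68 (adjusted p = 0.0854) and a median of 0.68. In nQC_LG, 0 of 5 markers of the quiescent centre and root pole were called (1 at an unadjusted p under 0.05): WOX5 was at 1.13 (adjusted p = 0.153) and BBM at 0.35, but PLT1 at -0.68, PLT2 at -0.94 and PLT3 at -0.47, with a median of -0.47. The 3 suspensor markers averaged 2.75 in nSUS_EG and 2.73 in nSUS_LG, near the array medians, and limma's F test called 0 of them (2 at an unadjusted p under 0.05). Between nSUS_EG and nEMB_EG, WOX8 was at 1.11 and WOX9 at 1.12, both at an unadjusted p under 0.05 but not called (adjusted p = 0.409 and 0.51), and PIN7 was at -0.44. Vascular cells of that stage were similar against nEMB_EG, with WOX8 at 1.18 (adjusted p = 0.0946), WOX9 at 0.70 (0.466) and PIN7 at -0.31. Between nSUS_EG and nVSC_EG, 0 of the 3 had an unadjusted p under 0.05 in limma. At 81 h the 4 ground tissue markers averaged 2.66 in nGSC_EG, also near the array medians. Of markers from outside the embryo, the 3 endosperm genes stayed between 1.56 and 2.13 in every group. The 3 seed coat genes averaged from 5.49 in nGSC_LG to 7.40 in nSUS_LG. The 3 pollen genes ran from 3.42 in nEMB_EG to 8.07 in nQC_LG. In nSUS_LG limma called the seed coat gene TT8 above nEMB_LG (1.98, adjusted p = 0.0265), nVSC_LG (2.70, 0.0177) and nGSC_LG (2.68, 0.00462). It called TT8 lower in nQC_LG than in nSUS_LG (-2.64, adjusted p = 0.0209) and TT4 higher in nSUS_LG than in nGSC_LG (1.57, 0.017). BAN was called in none of these comparisons. The part of seed coat RNA in the suspensor values below, and of pollen RNA in those of any group, was not tested.

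Group means of the 35 genes spanned about as much as those of other genes, and a smaller share of the 35 passed the F test. The span between the lowest and highest group mean had a median of 1.12 over the 35 genes and of 1.10 over all loci, and the SD within groups a median of 0.538 and 0.52. limma's moderated F test across the 11 groups, with Benjamini-Hochberg adjustment over all loci, called 1 of the 35 genes, AFB4, at an adjusted p under 0.05, where it called 9.56% of all loci. At an unadjusted p under 0.05 it took in 5 of the 35, or 14.3%, beside 25.6% of all loci. These were AFB4, IAA27 (adjusted p = 0.117), IAA7 (0.132), IAA2 (0.143) and IAA12 (0.169).

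**Figure D1:**
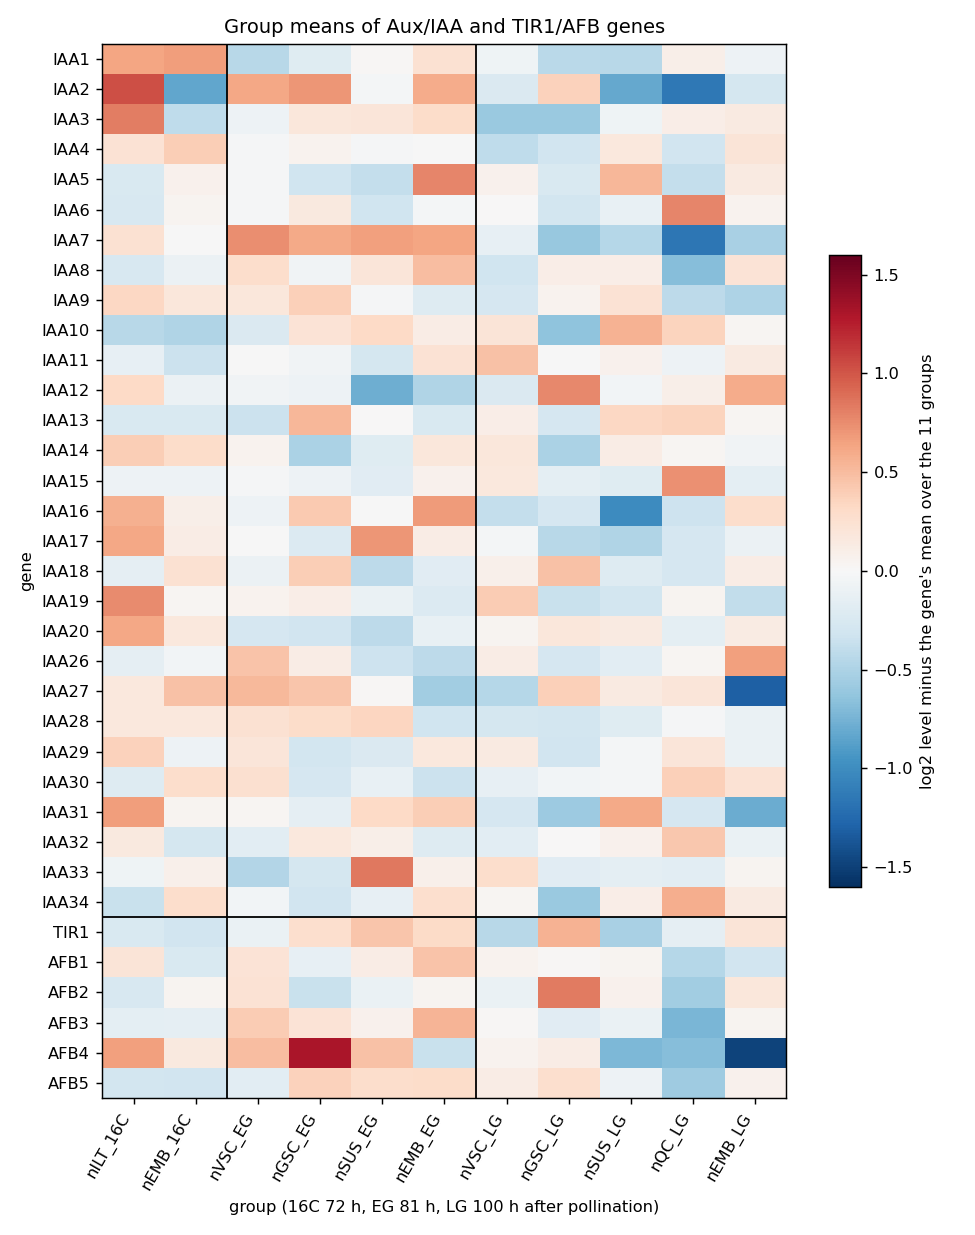
Group means of the 35 genes (rows) in the 11 groups (columns), as log2 intensity minus each gene's mean over the groups, in the colour scale shown. AFB4, the gene called by the F test, runs from 5.39 in nGSC_EG to 2.61 in nEMB_LG, the widest span of the 35.

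Among the receptors, AFB4 (AT4G24390), which with AFB5 forms the branch of the family that also perceives the herbicide picloram, differed most between groups. It was brightest in ground tissue at 81 h and dimmest in the whole embryo at 100 h. At 72 h its arrays read 5.62, 3.88 and 4.72 in nILT_16C and 4.28, 4.46 and 3.98 in nEMB_16C. At 81 h they read 4.84, 3.42, 4.81 and 5.23 in nVSC_EG, 5.92, 6.21, 4.63 and 4.78 in nGSC_EG, 4.79, 4.46 and 4.43 in nSUS_EG, and 3.92, 4.61, 4.07 and 2.32 in nEMB_EG. At 100 h they read 4.75, 3.32, 4.40 and 4.07 in nVSC_LG, 4.46, 4.12 and 4.04 in nGSC_LG, 2.15, 4.26 and 3.69 in nSUS_LG, 3.36, 2.23 and 4.63 in nQC_LG, and 2.56, 2.36, 1.89 and 3.63 in nEMB_LG. The 4 arrays of nGSC_EG lay above all 4 of nEMB_EG, and the 3 of nGSC_LG above all 4 of nEMB_LG, while the vascular, suspensor and QC arrays overlapped those of the whole embryo. Of all loci, 7.87% did not overlap in nGSC_EG minus nEMB_EG and 14.4% in nGSC_LG minus nEMB_LG.

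The moderated F test for AFB4 gave 4.07 with an adjusted p of 0.019. Group means ran from 5.39 ± 0.797 (SD, n = 4) in nGSC_EG to 2.61 ± 0.732 (SD, n = 4) in nEMB_LG, a span of 2.77. In the order of means, nILT_16C (4.74), nVSC_EG (4.58), nSUS_EG (4.56), nEMB_16C (4.24), nGSC_LG (4.21), nVSC_LG (4.14), nEMB_EG (3.73), nQC_LG (3.41) and nSUS_LG (3.37) lay between them, and each step was within the SD of 0.782 inside groups. The call was lost with the interquartile range of each array as a covariate (adjusted p = 0.0745) and without nEMB_LG 3 (0.0526), and kept without nQC_LG 2 (0.0181).

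Every cell type mean of AFB4 was above the whole embryo of its stage, although no single difference was called by limma. The difference was 1.66 in nGSC_EG (95% interval 0.60 to 2.71, adjusted p = 0.127), 1.60 in nGSC_LG (0.46 to 2.74, adjusted p = 0.214) and 1.52 in nVSC_LG (0.47 to 2.58, adjusted p = 0.195). It was 0.50 to 0.85 in the other 5 cell type groups, with intervals that included 0. Cell types of 1 stage share their whole-embryo arrays, so these differences are not independent. With array weights the difference in nGSC_EG was 1.58 and was called (adjusted p = 0.0372). The mean of the 4 stress response genes HSP70, HSFA2, WRKY40 and TCH4, which respond to heat, wounding or touch, was also higher in nuclei of cell types. It was 3.36 to 3.57 in the 3 whole-embryo groups and 4.09 to 6.55 in the 8 cell type groups, highest in nGSC_EG, and the F test called all 4. Single genes did not all follow the mean: HSP70 was below the whole embryo in nQC_LG (-0.69), nSUS_LG (-0.31) and nVSC_EG (-0.23), HSFA2 was at -0.03 in nQC_LG, and in nQC_LG limma called 0 of the 4 (2 at an unadjusted p under 0.05). Their part in the AFB4 values was not tested. Because these are bulk samples of nuclei, fewer expressing cells and less RNA per nucleus cannot be told apart.

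**Figure D2:**
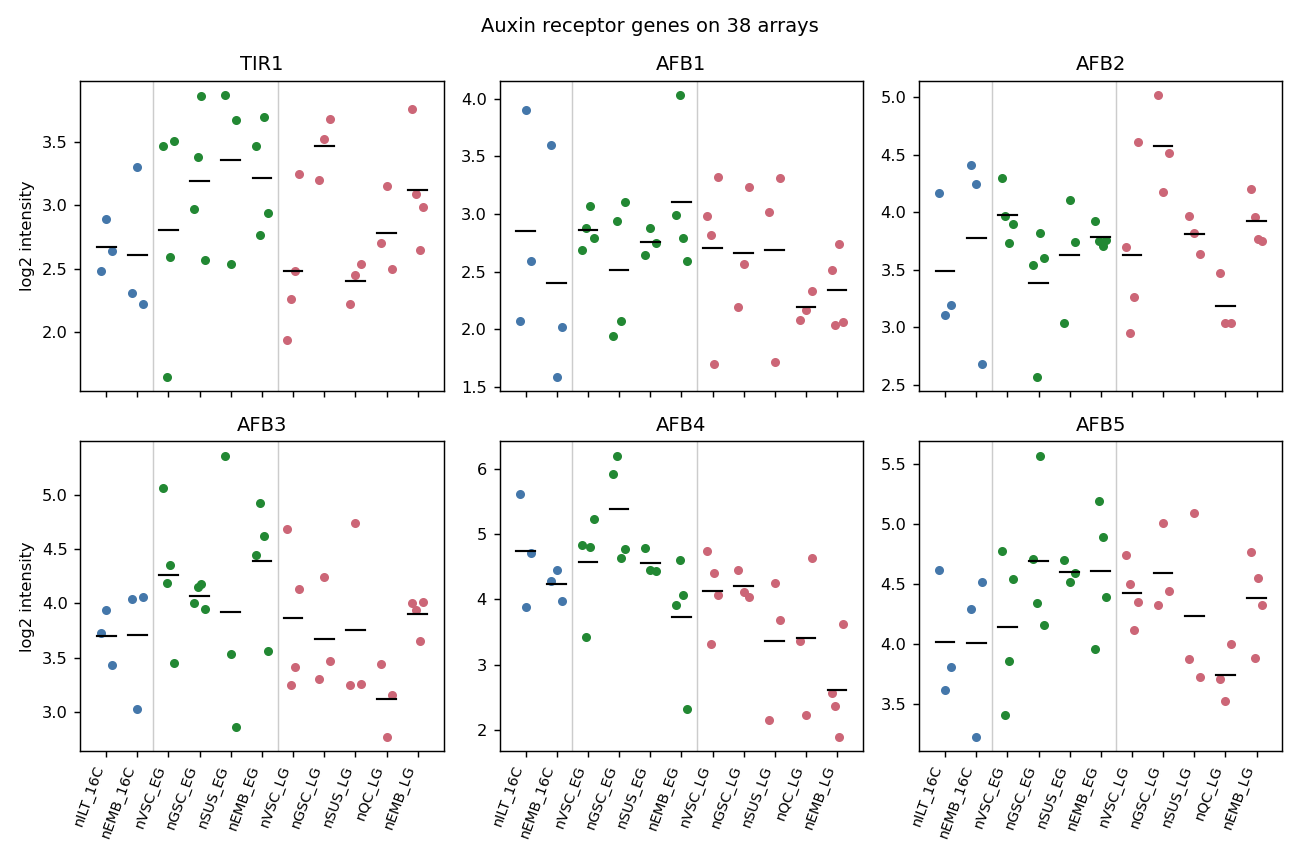
Log2 intensity of TIR1 and AFB1 to AFB5 on each of the 38 arrays, by group. Points are arrays and bars are group means. AFB4 lies between 1.89 and 3.63 on the nEMB_LG arrays and between 4.63 and 6.21 on the nGSC_EG arrays, and AFB2 is lower on the 3 nQC_LG arrays than on the 3 nGSC_LG arrays.

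AFB2 (AT3G26810), a receptor that acts redundantly with TIR1, was lower in the QC group than in ground tissue at 100 h. Its arrays read 3.47, 3.04 and 3.04 in nQC_LG and 5.02, 4.18 and 4.52 in nGSC_LG, so the groups did not overlap. Of all loci, 23.2% did not overlap in this pair either. At the same stage it read 3.70, 2.95, 3.26 and 4.61 in nVSC_LG, 3.97, 3.82 and 3.64 in nSUS_LG, and 4.20, 3.96, 3.77 and 3.75 in nEMB_LG. At 81 h it read 4.30, 3.97, 3.73 and 3.90 in nVSC_EG, 3.54, 2.57, 3.82 and 3.6 in nGSC_EG, 3.04, 4.11 and 3.74 in nSUS_EG, and 3.92, 3.75, 3.71 and 3.76 in nEMB_EG. Ground tissue thus held the highest group mean at 100 h and the lowest at 81 h. At 72 h the arrays read 4.17, 3.11 and 3.19 in nILT_16C and 4.41, 4.25 and 2.68 in nEMB_16C.

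The difference of AFB2 between nQC_LG and nGSC_LG was -1.39 (SE 0.401, 95% interval -2.20 to -0.57), with an adjusted p of 0.0489. It was the only call among the 35 genes in all 22 comparisons of 2 groups, and this comparison called 3.09% of all loci. The median of all loci there was 0.12, and with each array centred on its median the AFB2 difference was -1.50 (adjusted p = 0.0354). The call did not hold with quantile normalization (-1.16, adjusted p = 0.121), with array weights (0.0617), with an intensity trend in the prior (0.0751), with only the compared arrays (0.143) or with the interquartile range as a covariate (-1.0, adjusted p = 0.399). It was also lost without nGSC_LG 1 (-1.16, adjusted p = 0.183), nGSC_LG 2 (0.0884), nGSC_LG 3 (0.0912), nQC_LG 2 (0.157) or nQC_LG 3 (0.119), and kept without nQC_LG 1 (0.0463). With an array of any other group left out, which alters only the shared estimate of the spread and the adjustment, it was lost for 22 of 32 arrays, at adjusted p-values up to 0.0559. Interquartile ranges were 1.51 to 2.06 on the nGSC_LG arrays and 1.03 to 1.42 on those of nQC_LG. In the same comparison the pollen genes AGP11 (3.19) and VGD1 (2.39) were higher in nQC_LG, and HSP70 (-2.56), HSFA2 (-2.29) and the ground tissue gene JKD (-1.60) were lower, and the part of these in the AFB2 difference was not tested.

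Within ground tissue, AFB2 was brighter at 100 h than at 81 h by 1.19 (95% interval 0.43 to 1.95) on arrays that did not overlap, but the adjusted p was 0.106. Of all loci, 11.8% did not overlap there. Against nGSC_LG it differed by -0.94 in nVSC_LG (adjusted p = 0.192) and by -0.77 in nSUS_LG (0.414). Neither passed the test.

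TIR1 (AT3G62980), the founding auxin receptor, showed no called difference. Its arrays read 3.2, 3.52 and 3.68 in nGSC_LG, 2.22, 2.45 and 2.54 in nSUS_LG, and 1.94, 2.26, 2.48 and 3.25 in nVSC_LG. They read 2.70, 3.15 and 2.50 in nQC_LG and 3.76, 3.09, 2.65 and 2.99 in nEMB_LG. The suspensor and QC arrays at 100 h thus all lay below those of ground tissue, while vascular cells and the whole embryo overlapped it. Of all loci, 20.1% did not overlap in nSUS_LG minus nGSC_LG and 23.2% in nQC_LG minus nGSC_LG. At 81 h TIR1 read 3.47, 1.65, 2.59 and 3.51 in nVSC_EG, 2.97, 3.38, 3.86 and 2.57 in nGSC_EG, 3.87, 2.54 and 3.67 in nSUS_EG, and 3.47, 2.77, 3.70 and 2.94 in nEMB_EG. At 72 h it read 2.48, 2.89 and 2.64 in nILT_16C and 2.31, 3.3 and 2.22 in nEMB_16C. The groups of these earlier stages overlapped one another. The suspensor and ground tissue differed at 100 h by -1.07 (95% interval -1.94 to -0.19, adjusted p = 0.256), and vascular cells and ground tissue by -0.99 (-1.80 to -0.17, adjusted p = 0.202).

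The other receptors gave no call and an unadjusted F test p of 0.313 or more. AFB1 (AT4G03190), known for fast responses in roots, had group means from 2.19 in nQC_LG to 3.1 in nEMB_EG. AFB3 (AT1G12820), a receptor with a role in the response of roots to nitrate, ran from 3.12 in nQC_LG to 4.39 in nEMB_EG. AFB5 (AT5G49980) ran from 3.75 in nQC_LG to 4.69 in nGSC_EG. The QC group had the lowest mean for AFB1, AFB2, AFB3 and AFB5 but not for TIR1 and AFB4. It also had the lowest mean of IAA2, IAA7 and IAA8, and the highest of IAA6, IAA15, IAA30, IAA32 and IAA34. Interquartile ranges on its arrays were 1.03 to 1.42, and the share of all loci with their lowest mean in this group was not computed. Group means of AFB2, AFB3 and AFB5 were above 2.71, the highest array median, in all 11 groups, that of AFB4 in 10, and those of TIR1 and AFB1 in 7 and 4.

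The Aux/IAA genes with a textbook role in the embryo are IAA12 and its close relative IAA13, which act with ARF5, and IAA10, which acts in the suspensor with ARF9. None of the 3 had a called difference. IAA12 (AT1G04550) read 3.52, 3.78 and 3.35 in nGSC_LG, 3.03, 2.75, 2.00 and 2.45 in nVSC_LG, and 2.47, 3.21 and 2.54 in nSUS_LG. It read 2.47, 2.83 and 3.35 in nQC_LG and 2.68, 4.80, 2.87 and 3.18 in nEMB_LG. Ground tissue had the highest mean at 100 h, and its arrays lay above every vascular and suspensor array. Of all loci, 17.5% did not overlap in nVSC_LG minus nGSC_LG and 20.1% in nSUS_LG minus nGSC_LG. At 81 h IAA12 read 2.28, 3.21, 3.23 and 2.18 in nVSC_EG, 3.58, 2.08, 2.20 and 2.99 in nGSC_EG, 2.14, 1.67 and 2.22 in nSUS_EG, and 2.18, 2.26, 1.79 and 3.01 in nEMB_EG. At 72 h it read 3.44, 3.14 and 2.70 in nILT_16C and 2.90, 2.75 and 2.40 in nEMB_16C. The suspensor at 81 h was the dimmest group, with a mean of 2.01 ± 0.296 (SD, n = 3). Vascular cells and ground tissue differed at 100 h by -0.99 (SE 0.409), which missed the threshold with an adjusted p of 0.212.

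IAA13 (AT2G33310) had group means above the highest array median, 2.71, in all 11 groups. At 81 h it read 4.75, 4.76, 4.50 and 5.16 in nGSC_EG and 3.37, 3.52, 4.41 and 4.36 in nVSC_EG, without overlap, beside 6.43% of all loci. It read 5.29, 4.46 and 3.03 in nSUS_EG and 5.02, 3.76, 4.05 and 3.2 in nEMB_EG, and both of these groups overlapped the other pair. The vascular and ground tissue groups differed by -0.88 (SE 0.406, adjusted p = 0.32). At 100 h IAA13 read 4.60, 4.14, 4.75 and 3.93 in nVSC_LG, 3.78, 3.91 and 4.23 in nGSC_LG, 4.84, 3.83 and 5.08 in nSUS_LG, 5.26, 4.18 and 4.38 in nQC_LG, and 4.20, 3.77, 4.77 and 4.38 in nEMB_LG. At 72 h it read 3.90, 4.09 and 4.05 in nILT_16C and 3.57, 4.95 and 3.5 in nEMB_16C. All groups of these 2 stages overlapped within the stage.

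IAA10 (AT1G04100) read 2.24, 3.49 and 3.67 in nSUS_LG and 2.99, 2.25 and 3.43 in nSUS_EG, and the suspensor had its highest mean at both stages. Ground tissue at 100 h was its dimmest group, with 1.83, 0.97 and 2.95, and the suspensor was brighter by 1.21 (SE 0.474, adjusted p = 0.235) with overlapping arrays. The other groups of 100 h read 2.64, 2.72, 2.59 and 3.12 in nVSC_LG, 2.72, 3.5 and 2.53 in nQC_LG, and 2.16, 3.2, 2.13 and 2.91 in nEMB_LG. All 3 overlapped the suspensor. At 81 h IAA10 read 2.28, 1.74, 1.92 and 3.43 in nVSC_EG, 2.49, 3.65, 2.19 and 2.84 in nGSC_EG, and 2.98, 2.14, 2.59 and 3.05 in nEMB_EG. At 72 h it read 1.99, 2.50 and 1.89 in nILT_16C and 2.03, 1.58 and 2.66 in nEMB_16C. Group means of IAA10 ran from 1.92 to 3.13, on both sides of the array medians.

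**Figure D3:**
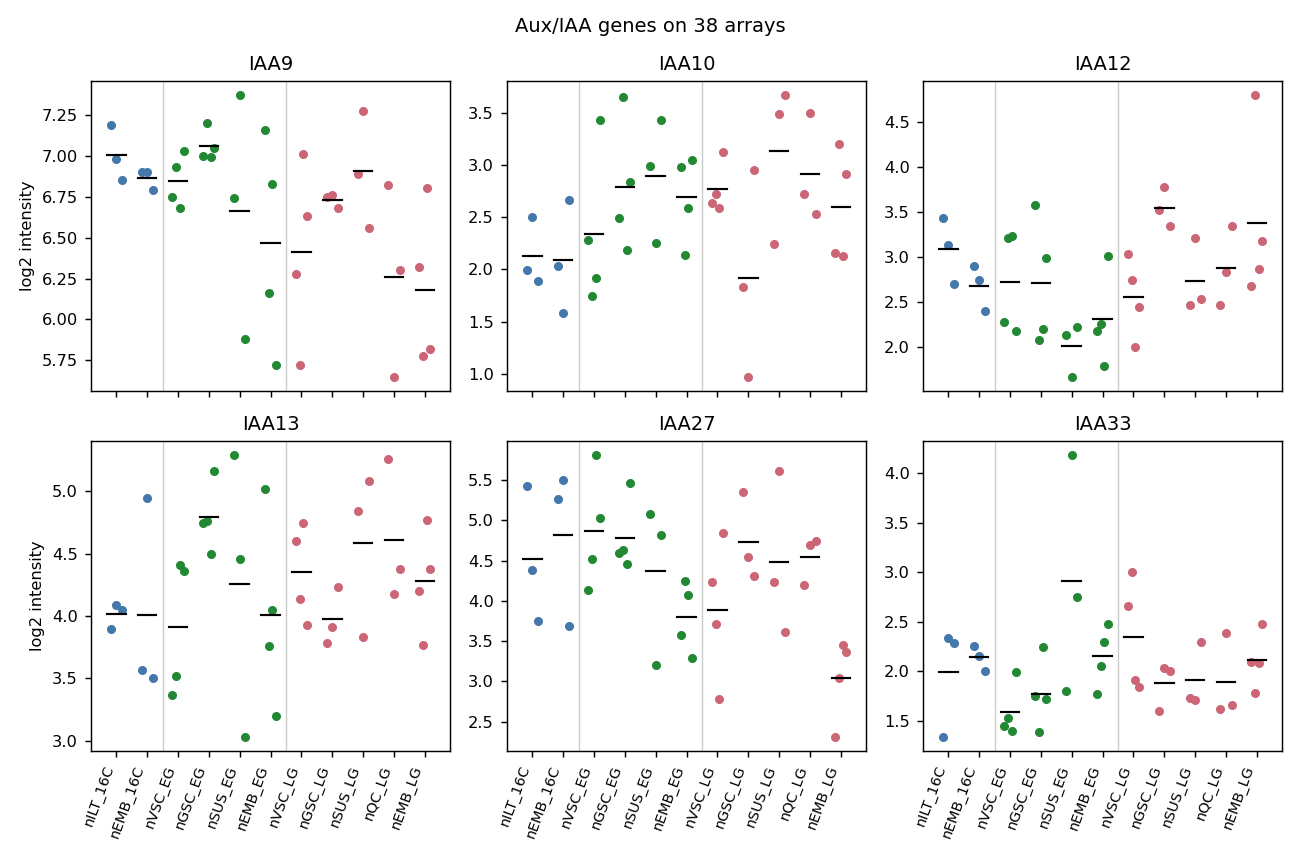
Log2 intensity of IAA9, IAA10, IAA12, IAA13, IAA27 and IAA33 on each of the 38 arrays, by group, with group means as bars and a separate scale for each gene. IAA27 is lowest in nEMB_LG (2.31 to 3.45), and IAA33 has 1 nSUS_EG array at 4.18, above all others.

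IAA27 (AT4G29080), a relative of IAA8 and IAA9, came next to AFB4 in the F test with an unadjusted p of 0.0193 and missed the threshold after adjustment. It was dimmest in the whole embryo at 100 h, where its arrays read 2.31, 3.04, 3.45 and 3.37. At that stage it read 5.35, 4.55 and 4.31 in nGSC_LG, 4.20, 4.70 and 4.74 in nQC_LG, 4.24, 5.62 and 3.61 in nSUS_LG, and 4.23, 3.71, 2.78 and 4.84 in nVSC_LG. Only the vascular arrays overlapped those of the whole embryo. Of all loci, 14.4% did not overlap in nGSC_LG minus nEMB_LG, 10.4% in nSUS_LG minus nEMB_LG and 9.56% in nQC_LG minus nEMB_LG. The difference from the whole embryo was 1.69 in nGSC_LG (adjusted p = 0.156), 1.51 in nQC_LG (0.164) and 1.45 in nSUS_LG (0.232). The whole embryo was the dimmest group of its stage at both 81 h and 100 h for 4 of the 35 genes, AFB4, IAA9, IAA19 and IAA27. The share of all loci for both stages together was not computed. At each stage alone the whole embryo was dimmest for 8 of the 35 at 81 h (22.9%, beside 22.1% of all loci) and for 5 at 100 h (14.3%, beside 15.3%). It was brightest for 13 of the 35 at 81 h (37.1%, beside 26.8% of all loci) and for 6 at 100 h (17.1%, beside 17.8%). Over the 11 group means, AFB4 and IAA27 had a correlation of 0.68, and over the 38 deviations from group means one of 0.28. The arrays enter both genes, so these are descriptions only.

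IAA8 (AT2G22670) and IAA9 (AT5G65670) had the highest intensities of the Aux/IAA probes. Group means of IAA9 ran from 6.18 in nEMB_LG to 7.06 in nGSC_EG and those of IAA8 from 5.0 in nQC_LG to 6.17 in nEMB_EG. IAA16 (AT3G04730) ran from 2.84 in nSUS_LG to 4.53 in nEMB_EG. IAA28 (AT5G25890), which acts in the founding of lateral roots, ran from 3.00 in nEMB_EG to 3.66 in nSUS_EG, the narrowest span of all 35 genes. These 4 genes, IAA13, IAA27 and the receptors AFB2, AFB3 and AFB5 were the 9 of the 35 whose group means were above the highest array median in all 11 groups.

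The pairs IAA2 and IAA7, IAA1 and IAA14, and IAA3 and IAA17 are neighbours in the genome with no annotated protein-coding gene between them. IAA7 (AT3G23050), known as AXR2, and IAA2 (AT3G23030), an auxin-induced gene, were both dimmest in nQC_LG, at means of 2.56 and 2.67. IAA7 was brightest in nVSC_EG (4.45) and IAA2 in nILT_16C (4.85). Over the 11 group means the neighbours had a correlation of 0.69 for IAA2 and IAA7, of 0.62 for IAA1 and IAA14, and of 0.54 for IAA3 and IAA17. Over deviations from group means on the 38 arrays it was -0.35, 0.07 and -0.32. The 13 pairs of close relatives by protein family, such as IAA12 and IAA13 (-0.12), had correlations of group means from -0.14 to 0.43, and all 595 pairs of the 35 genes a median of -0.01 with a range from -0.73 to 0.87.

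IAA14 (AT4G14550), known as SOLITARY-ROOT for its part in lateral root initiation, ran from 1.85 in nGSC_LG to 2.76 in nILT_16C. Its neighbour IAA1 (AT4G14560) ran from 1.72 in nVSC_EG to 2.84 in nEMB_16C. IAA3 (AT1G04240), known as SHY2 for its part in setting root meristem size, ran from 1.93 in nVSC_LG to 3.34 in nILT_16C. IAA17 (AT1G04250), known as AXR3, ran from 2.16 in nSUS_LG to 3.34 in nSUS_EG, and IAA4 (AT5G43700) from 2.05 in nVSC_LG to 2.85 in nEMB_16C. None of these 5 genes passed a test.

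IAA19 (AT3G15540), which acts in the bending of the hypocotyl, ran from 2.26 in nEMB_LG to 3.41 in nILT_16C. IAA11 (AT4G28640) ran from 2.51 in nEMB_16C to 3.32 in nVSC_LG, IAA18 (AT1G51950), whose stabilised form alters cotyledons, from 1.67 in nSUS_EG to 2.56 in nGSC_LG, and IAA26 (AT3G16500) from 2.07 in nEMB_EG to 3.14 in nEMB_LG. For IAA26 the whole embryo was the dimmest group at 81 h and the brightest at 100 h. The stage difference of vascular cells minus whole embryo was -1.40 (95% interval -2.47 to -0.33, adjusted p = 0.491) and that of ground tissue -1.44 (-2.56 to -0.33, adjusted p = 0.626), neither of which passed the test.

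Of the rapidly auxin-induced IAA5 (AT1G15580) and IAA6 (AT1G52830), and of IAA15 (AT1G80390) and IAA29 (AT4G32280), no group mean was above 2.71, the highest array median. IAA5 was brightest in nEMB_EG (2.65) and lowest in nSUS_EG (1.48), a difference of -1.18 (adjusted p = 0.354). IAA6 and IAA15 were both brightest in nQC_LG, at 2.57 and 2.56, and their group means had the highest correlation of the 595 pairs, 0.87. In the other groups the means ran only from 1.47 to 1.95 for IAA6 and from 1.63 to 1.99 for IAA15. The correlation thus rests mostly on nQC_LG. There IAA6 read 3.54 on nQC_LG 2, the array least like its own group, and 2.15 and 2.01 on the others. The QC group was above the whole embryo by 0.88 for IAA15 (adjusted p = 0.132). IAA29 stayed between 1.58 and 2.26. At these levels a gene that is off and one that is weakly on may give the same intensity.

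The 6 genes without a conserved degron gave no call, and 0 of them had an unadjusted F test p under 0.05 in limma. IAA20 (AT2G46990) and IAA30 (AT3G62100), which act in xylem formation downstream of ARF5, ran from 1.39 to 2.43 and from 1.77 to 2.50. IAA31 (AT3G17600) was the brightest probe of the 6, from 2.32 in nEMB_LG to 3.78 in nILT_16C. IAA32 (AT2G01200) ran from 1.95 to 2.67 and IAA34 (AT1G15050), which with it acts in the apical hook, from 1.97 to 3.14. IAA33 (AT5G57420), which acts in the root tip, averaged 2.91 ± 1.2 (SD, n = 3) in nSUS_EG, with arrays from 1.80 to 4.18, and 1.59 ± 0.271 (SD, n = 4) in nVSC_EG. The difference was 1.32 (SE 0.373, adjusted p = 0.155). Without nSUS_EG 1, the lowest array of its group at 1.80, it was 1.87 and was called (adjusted p = 0.036).

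Counted by kind of comparison, the 35 genes were called no more often than other genes. Between a cell type and the whole embryo of its stage, limma called 0 of 280 gene and comparison pairs, beside 0.953% for all loci, and 24 (8.57%) had an unadjusted p under 0.05, beside 11.4%. Between stages of 1 cell type it called 0 of 175, beside 0.644%, with 15 (8.57%) at an unadjusted p under 0.05, beside 10.1%. Between cell types of 1 stage it called 1 of 315, beside 0.73%, with 25 (7.94%) at an unadjusted p under 0.05, beside 11.6%. For the 3 stage differences, which set the gap between a cell type and the whole embryo at 100 h against that at 81 h, it called 0 of 105, beside 0.0024%, with 6 (5.71%) at an unadjusted p under 0.05, beside 6.93%. The median SE of a difference was 0.409, which gives an unadjusted 95% interval of 0.831 to either side on the log2 scale.

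**Figure D4:**
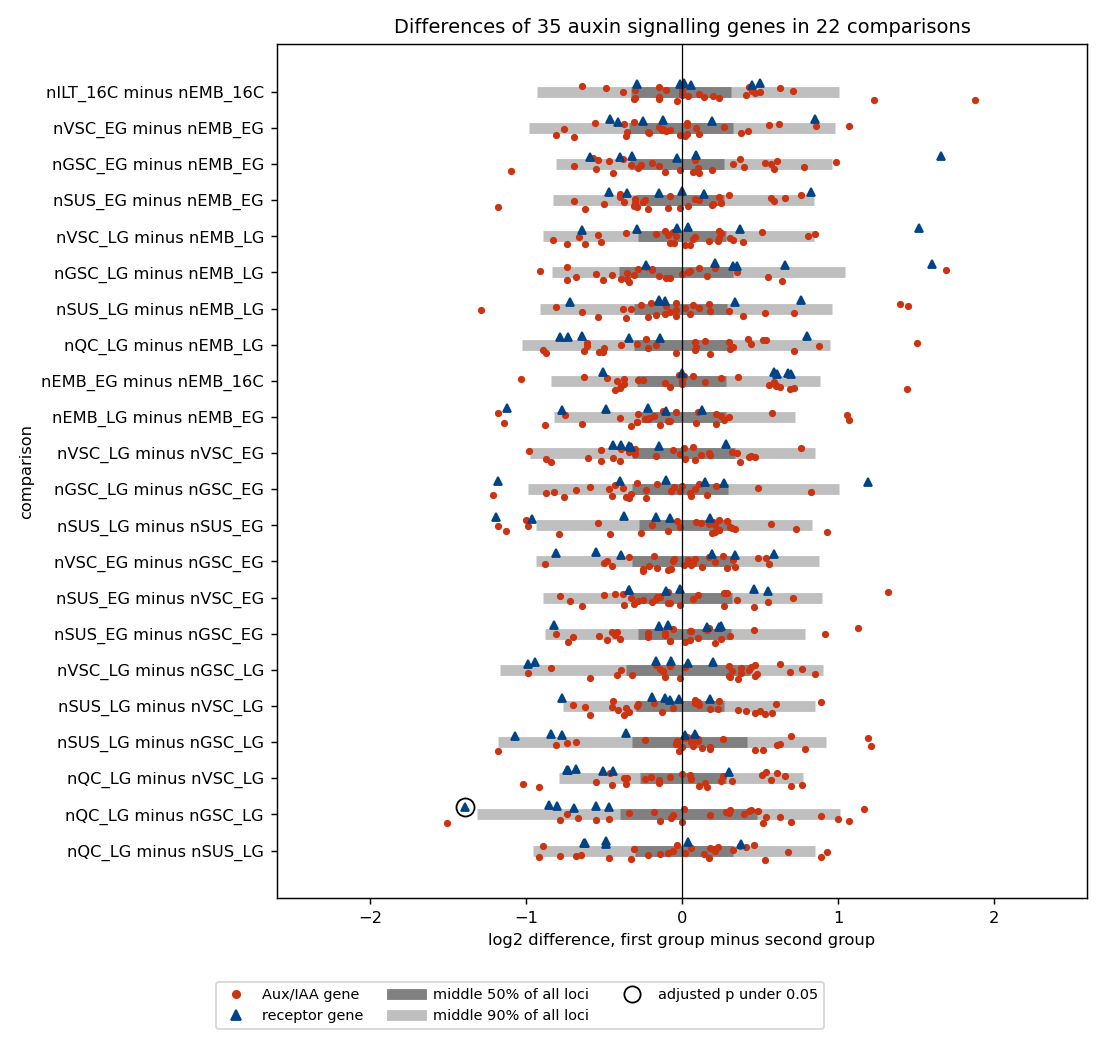
Log2 differences of the 35 genes in each of the 22 comparisons of 2 groups (points), with bands for the middle 50% and 90% of all 27826 loci. The circle marks the AFB2 call (-1.39) in nQC_LG minus nGSC_LG.

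Taken comparison by comparison, AFB2 remained the single call, and the largest change of the 35 genes was at most 1.88 in size. In the inner lower tier against the whole embryo at 72 h, limma called 0.449% of all loci, and the largest change among the 35 was that of IAA2 (1.88, adjusted p = 0.278). Against the whole embryo at 81 h it called 2.15% in vascular cells, 1.12% in ground tissue and 0.198% in the suspensor, where the largest changes were those of IAA27 (1.07, adjusted p = 0.275), AFB4 (1.66) and IAA5 (-1.18). Against the whole embryo at 100 h it called 0.787% in vascular cells, 0.449% in ground tissue, 0.967% in the suspensor and 1.5% in the QC group, where the largest changes were those of AFB4 (1.52) in vascular cells and IAA27 in the other groups. None of these passed the test.

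Between successive stages, limma called 0.187% of all loci in the whole embryo from 72 h to 81 h and 0.111% from 81 h to 100 h, and the largest changes of the 35 genes were those of IAA2 (1.44, adjusted p = 0.515) and IAA31 (-1.18, adjusted p = 0.498). From 81 h to 100 h it called 1.1% in vascular cells, 1.47% in ground tissue and 0.359% in the suspensor. There the largest changes were those of IAA27 (-0.98, adjusted p = 0.367), IAA7 (-1.21, adjusted p = 0.364) and AFB4 (-1.19, adjusted p = 0.686). The 3 stage differences called 0% of all loci for vascular cells and for ground tissue and 0.00719% for the suspensor, where IAA5 had the largest value (1.57, adjusted p = 0.558). No gene of the 35 passed in any of these.

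Between cell types at 81 h, limma called 0.74% of all loci in vascular cells against ground tissue, 0.0575% in the suspensor against vascular cells and 0.0252% in the suspensor against ground tissue. The largest changes were those of IAA13 in the first pair (-0.88) and of IAA33 in both others (1.32 and 1.13). At 100 h it called 1.24% in vascular cells against ground tissue, 0.0144% in the suspensor against vascular cells and 1.24% in the suspensor against ground tissue, with the largest changes those of IAA12 (-0.99), IAA31 (0.89, adjusted p = 0.793) and IAA10 (1.21). For the QC group it called 0.0683% against vascular cells and 0.101% against the suspensor, where IAA7 (-1.02, adjusted p = 0.822) and IAA15 (0.93, adjusted p = 0.302) had the largest values, neither past the test. Against ground tissue, where AFB2 was called, the largest value was that of IAA2 (-1.51, adjusted p = 0.228).

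Arrays of the compared groups did not overlap for 8 of the 35 genes in nQC_LG minus nGSC_LG, beside 23.2% of all loci, and for 6 in nQC_LG minus nEMB_LG, beside 9.56%. In nVSC_EG minus nEMB_EG they overlapped for each of the 35, where 7.65% of all loci did not overlap, and 3 of the 35 had an unadjusted p under 0.05, beside 15.1%.

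Among the listed partners of these proteins, the calls were for ARFs. As above, the F test called 9.56% of all loci, and over the 22 comparisons of 2 groups 0.792% of all gene and comparison pairs were called. Of the 5 activating ARFs, the F test called ARF6 (adjusted p = 0.0469, from 2.71 in nSUS_LG to 4.25 in nGSC_LG) and ARF19 (adjusted p = 0.0187, from 1.35 in nEMB_LG to 3.96 in nGSC_EG). ARF6 was lower in the suspensor than in ground tissue at 100 h by 1.54 (log2 difference -1.54, adjusted p = 0.0457), the 1 call among 110 pairs of that list (0.909%). Of the 18 other ARFs, the F test called ARF3 (adjusted p = 1.12e-05), a regulator of organ polarity, and 11 of 396 pairs (2.78%) were called, for ARF3, ARF14, ARF17 and ARF22. ARF3 rose from 81 h to 100 h in ground tissue by 2.65 (adjusted p = 3.8e-05) and in vascular cells by 1.63 (0.00719), and at 100 h was higher in ground tissue than in the whole embryo by 1.60 (0.0211). ARF5 itself ran from 4.90 in nVSC_EG to 7.44 in nGSC_LG and missed the threshold (adjusted p = 0.0734). Of the 5 TOPLESS corepressors, the 8 genes of the SCF ligase and its activation, the 6 GH3 enzymes that conjugate auxin and the jasmonate receptor gene COI1, limma's F test called 0 of 20 genes and the comparisons 0 of 440 pairs. At an unadjusted p under 0.05 the F test took in 1 gene of each of these 4 groups.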

How the data were processed

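The members and the lists of partner and marker genes were chosen with earlier results of these data known. Intensity values were deposited by the authors on a linear scale, made with RMA, as the submitters' processing notes state. The method subtracts background, is meant to give arrays like distributions and combines the probes of a locus, so differences in total RNA per nucleus are lost, and dim genes are compressed. The deposited arrays still differed in interquartile range, from 1.03 to 2.1. RNA was amplified from small amounts before labelling, per the labels' protocols. Which probes make up a locus was not stated, and close paralogs may share signal. The number of arrays per group, 3 or 4, limits the precision.

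The log2 of each value was used, with no constant added. limma 3.58.1 in R 4.3.3 fitted 11 group means to all 38 arrays, with eBayes (27 residual and 6.79 prior degrees of freedom), an F test, 22 comparisons of 2 groups and 3 stage differences. Tests were two-sided. The threshold for a call was 0.05 for p-values adjusted over 27826 loci by Benjamini-Hochberg. Code was tested on simulated data, with 2-fold changes planted in nQC_LG for 100 genes and 4-fold changes for 100 others. In nQC_LG minus nGSC_LG, 8 of the 2-fold and 70 of the 4-fold changes were called. The F test called 1 and 50 of them. A missing call thus does not show that a gene was unchanged. No arrays were duplicates: the most alike pair, nEMB_EG 1 and nEMB_EG 3, had a correlation of 0.896.

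Array values are given for genes called by any test and for TIR1, IAA10, IAA12 and IAA13, and for IAA27, which that rule does not cover and which was added after its values were seen. The other members are given by group means, and partner genes where called. Names were taken from the TAIR10.1 gene table, which matched 27241 loci. Alternatives were quantile normalization, centring on array medians, array weights, a filter on the dimmest 25% of loci, a prior with an intensity trend, the interquartile range as a covariate, only the compared arrays, a replicate block, an adjusted p under 0.1 and leaving out each array.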

Additional observations from a re-analysis of the deposited data

Results flagged for a closer look

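In groups of 4 arrays, a gene was singled out where its highest or lowest array stood apart by a gap of more than Dixon's 95% critical value times the range of the group. This held for 8 of 175 combinations of gene and group, and chance gives about 1 in 20. IAA28 accounted for a pair of them: it read 5.30 in nGSC_EG 1, above the other arrays of that group at 2.85 to 3.26, and 2.84 in nVSC_EG 4, below the others at 3.78 to 3.84. The array nEMB_EG 4 was high for IAA16 (5.91, others 4.01 to 4.15) and for IAA29 (3.01, others 1.66 to 1.81). IAA3 read 2.89 in nVSC_EG 2 (others 2.24 to 2.32), and IAA18 read 2.00 in nGSC_EG 1 (others 2.59 to 2.69). IAA19 read 1.92 in nEMB_LG 3 (others 2.34 to 2.41), and IAA34 read 2.34 in nEMB_EG 2 (others 2.96 to 3.03).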

How the results depend on the processing

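The F test called 1 of the 35 genes in the fit as reported and 0 with the interquartile range of each array as a covariate. Leaving out each array in turn gave 0 to 2, with 0 without nEMB_LG 3 and a further call for IAA1 without nEMB_16C 1, for IAA2 without nVSC_EG 1 and for IAA5 without nSUS_LG 1. Cell types against the whole embryo gave 0 calls as reported and 1 (AFB4) with array weights. Between cell types of 1 stage the count was 1 as reported, 0 with quantile normalization, array weights, an intensity trend, the interquartile range as a covariate or only the compared arrays, 2 at an adjusted p under 0.1, and 0 to 2 with each array left out. Comparisons between stages and the stage differences kept 0 calls in these settings. The causes were not tested. Over all loci the F test called 2661 as reported and 4155 with array weights. The difference of IAA10 between nSUS_EG and nEMB_EG, 0.20 and not called, ranged from -0.07 without nSUS_EG 3 to 0.52 without nSUS_EG 2. IAA6 was higher in nQC_LG than in nGSC_LG by 1.07 (adjusted p = 0.0868). Without nGSC_LG 3, the highest array of its group at 2.12, it was called (1.38, adjusted p = 0.0491). Among all single values tracked, AFB4 and AFB2 included, 1406 cases kept their direction and their side of the threshold. In 12 a call was lost, in 3 one was gained and in 1 the direction changed. These counts leave out the AFB2 fits without an array of another group. Values far from the threshold could hardly change side. The filter on dim loci left 28 of the 35 genes.

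Replicate numbers did not clearly pair the arrays. Over 175 pairs of arrays with the same number in different groups, deviations from group means had a median correlation of -0.0014 (-0.148 to 0.208). Over 480 pairs with different numbers the median was -0.00228 (-0.259 to 0.219). The correlation was over 0.1 for 19 of the 175 pairs and for 32 of the 480. Of the 38 arrays, 13 correlated best with their own number. These values do not settle whether some arrays were paired. With a replicate block the counts were 1 for the F test (AFB4, adjusted p = 0.029), 0 against the whole embryo, 0 between stages, 1 between cell types and 0 for the stage differences.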
